A study of Bos indicus with 55 samples.

Results

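The libraries described here are small RNA libraries of extracellular vesicles (EVs, membrane particles released by cells) from bovine conceptuses, sorted by how much of each library falls on the entries miR-2887 and miR-2904. In each of the 28 EV libraries the counts of these 2 entries were divided by all counts of the library. The 9 libraries with the highest share are called rich, the 9 with the lowest poor and the other 10 middle. The classes were thus chosen by a measured value, so the share and its split between both entries are given as descriptions, with no test. The comparison is made over the 1022 other entries listed, rescaled to the counts left without miR-2887 and miR-2904.

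Each EV library held vesicles that a single conceptus, the embryo with its membranes, shed into culture medium over 6 h on day 16 of pregnancy. Conception was by artificial insemination in the cow, called in vivo (3 female, 3 male), by in vitro fertilisation (IVF; 7 female, 3 male) or by nuclear transfer, in which an egg receives the nucleus of another cell (5 female, 7 male). The labels give no age, donor cell line or culture batch, and no treatment other than day 16 of pregnancy. They name Bos indicus throughout, whereas the series' design text assigns the cows to Bos taurus indicus and the conceptuses to Bos taurus taurus. Endometrium, the lining of the uterus, was sequenced as poly(A) RNA in 27 of the cows. P-values measure the spread between conceptuses of a class, whose culture and library preparation may also differ.

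MicroRNAs (miRNAs) are short RNAs that guide silencing proteins to messenger RNAs, and those with the same seed near the 5′ end share targets and form families. Vesicles carry them out of cells together with pieces of other small RNAs. Some catalogued miRNAs lie inside longer RNAs such as ribosomal, transfer or small nucleolar RNA, so that a fragment of the longer RNA can be counted under a miRNA name. By day 16 the bovine conceptus is a filament built mostly of trophectoderm, the epithelial layer that will attach to the endometrium. Whether the reads of miR-2887 and miR-2904 come from ribosomal RNA was not tested, because read sequences were not used here, and the libraries are called rich or poor in these entries only.

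The share of both entries together ran from 48.1% to 76.3% of all counts in the rich libraries (median 62.5%). In the middle libraries it ran from 24.4% to 44.6% (median 36.6%), and in the poor ones from 4.11% to 23.97% (median 13.0%). The shares were graded rather than split into separate levels. IVF female replicate 3, the last rich library, stood at 48.1% and nuclear transfer male replicate 5, the first below it, at 44.6%. On the lower side nuclear transfer female replicate 5 at 24.4% fell just outside the poor class and IVF female replicate 1 at 23.97% just inside.

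**Figure D1:**
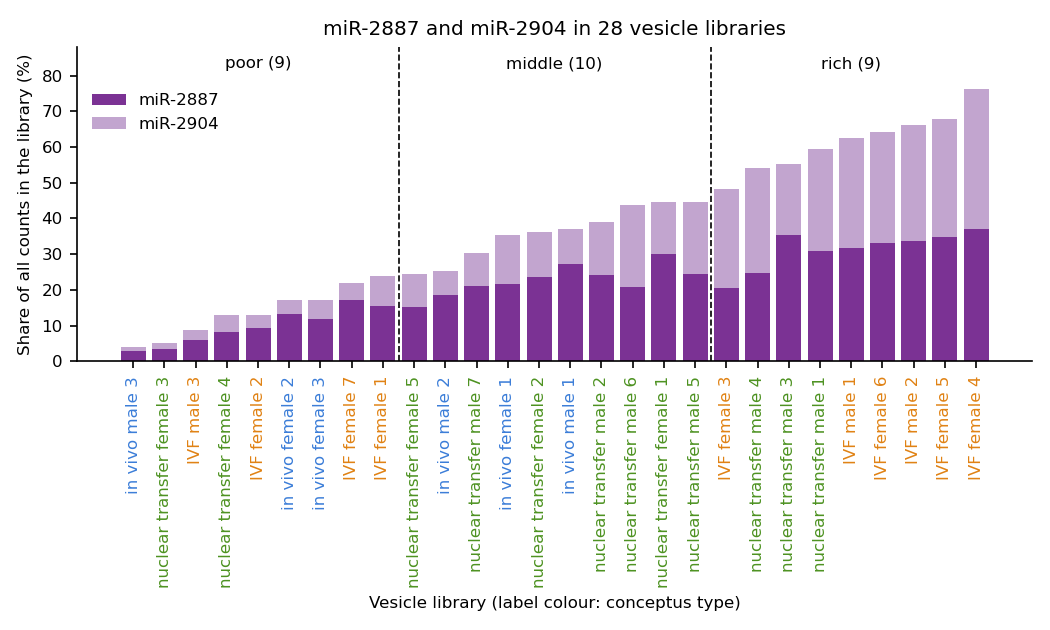
Share of all counts (vertical axis, percent) on miR-2887 (dark) and miR-2904 (light) in each of the 28 EV libraries, ordered from the lowest to the highest, with label colours for the conceptus type and dashed lines at the class borders. The rich libraries reach from 48.1% to 76.3%, and the 10 IVF libraries lie at both ends, none of them in the middle.

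Both entries took part, but not in a fixed proportion. MiR-2887 made up 20.4% to 37.1% of a rich library and 3.01% to 17.2% of a poor one, while miR-2904 made up 19.9% to 39.2% and 1.10% to 8.54%. The ratio of miR-2887 to miR-2904 was accordingly 0.735 to 1.78 in the rich libraries (median 1.02) and 1.81 to 3.60 in the poor ones (median 2.34), with no overlap. The class with more of both entries was the class with relatively more miR-2904. Among the other entries with more than 200 counts, none had counts that were a fixed multiple of either entry across the libraries (the lowest chi-square per degree of freedom was 3.39, for miR-7857-5p against miR-2887).

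Conceptus type and sex were unevenly spread over the classes. The rich class held IVF female replicates 3, 4, 5 and 6, IVF male replicates 1 and 2, and nuclear transfer male replicates 1, 3 and 4. The poor class held IVF female replicates 1, 2 and 7, IVF male replicate 3, nuclear transfer female replicates 3 and 4, in vivo female replicates 2 and 3 and in vivo male replicate 3. No in vivo library was rich, and their share ran from 4.11% to 37.1% (median 21.1%). All 10 IVF libraries were either rich or poor (8.80% to 76.3%, median 55.3%). Nuclear transfer libraries ran from 5.17% to 59.4% (median 41.4%); there the rich libraries were all male and the poor ones all female, so share and sex cannot be told apart. Conceptus type entered every fit below as a covariate unless stated, which leaves the in vivo libraries without a contrast of their own.

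Depth differed between the classes as well. All 28 EV libraries held 39263 to 603579 counts. Without miR-2887 and miR-2904, 28848 to 92862 counts were left in the rich libraries (median 53704) and 37753 to 572357 in the poor ones (median 91832). The classes overlap in these totals, although the poor ones included the 2 deepest libraries. The number of entries with at least 1 count was 294 to 380 in the rich libraries (median 315) and 218 to 404 in the poor ones (median 311).

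At the same depth the rich libraries held more of the listed entries. Drawn down by formula to 28848 counts, the smallest total left, a rich library was expected to show 289.9 ± 10.3 entries (SD, n = 9; range 272.9 to 305.6) and a poor one 242.8 ± 20.3 (n = 9; range 210.7 to 264.3). The classes did not overlap, and the difference of 47.1 entries gave p = 0.000476 in an exact two-sided permutation test within conceptus types, the smallest p that the 2100 relabellings allow (0.000952 after Benjamini-Hochberg adjustment over 2 values). The share of the remaining counts in a library's own 10 leading entries was 64.4 ± 5.42% (n = 9) in the rich and 62.6 ± 4.59% (n = 9) in the poor libraries. That difference of 1.74 percentage points was within the spread (exact permutation p = 0.479, adjusted 0.479).

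Of the 1022 other entries, 653 had a count in some EV library and 215 passed the filter on low counts. By edgeR's quasi-likelihood test, 96 of the 215 differed between rich and poor libraries at an adjusted p under 0.05, which is 44.7% of the entries tested. Of these, 52 (24.2%) were higher in the rich libraries and 44 (20.5%) lower. In 33 of the 215 (15.3%) the 9 rich and 9 poor libraries did not overlap at all in CPM, the count per 1000000 of the remaining counts; all 33 were among the 96, with 18 higher and 15 lower. Some names hold the same counts in every library and stand for 1 measurement (let-7b with miR-3596, miR-152 with miR-148c, miR-6529a with miR-6529b), so the 96 are 93 separate entries. Scaled to all counts with miR-2887 and miR-2904 kept in, 25 entries were higher and 74 lower, because the share is then part of every denominator. Every level and fold below is relative to the counts left. Even on that basis the median fold of all 215 was 0.13 on the log2 scale with TMM scaling, and 0.46 with the remaining totals alone.

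**Figure D2:**
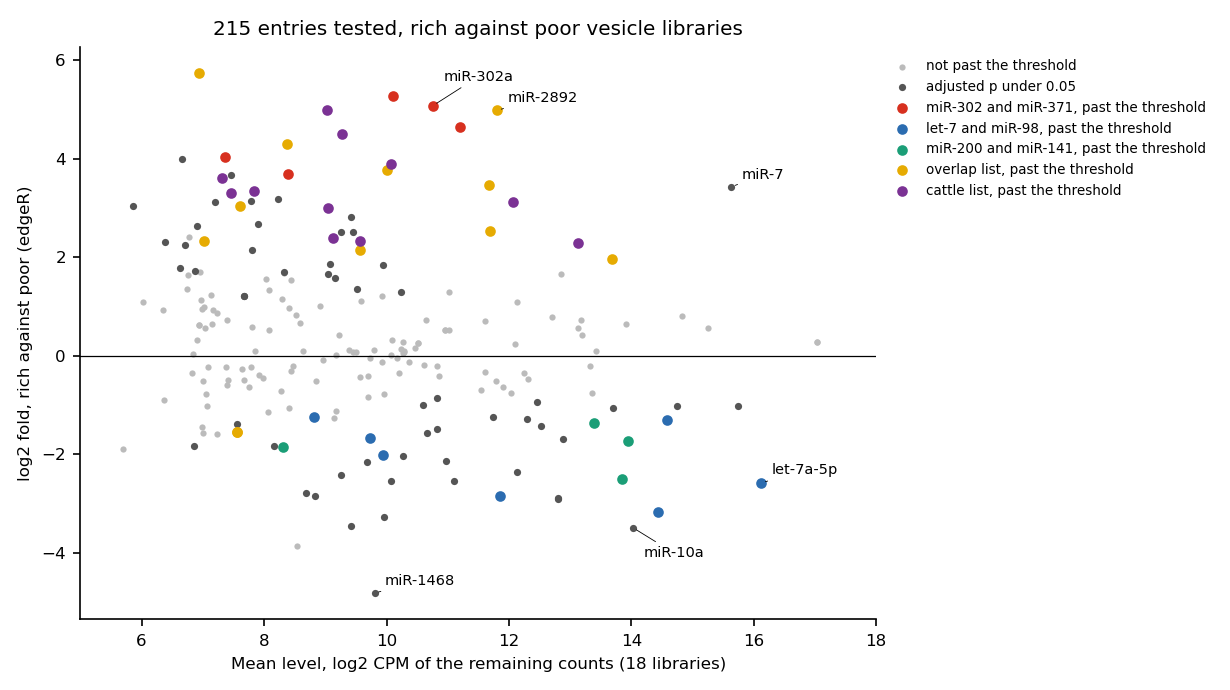
Fold between the classes (vertical axis, log2, rich against poor, edgeR) against the mean level in the 18 libraries (horizontal axis, log2 CPM of the remaining counts) for the 215 entries tested, each point an entry, with colours for list members past the threshold. The miR-302 and miR-371 entries (red) all lie above 3.5, the let-7 and miR-98 entries (blue) all below 0, and miR-7 stands out as both abundant and much higher in the rich libraries.

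The entry that separated the classes with the smallest p was miR-7, a miRNA known from nerve and endocrine cells and kept nearly unchanged among animals. Its level was 3991 CPM in the lowest poor library, 7647 at the median and 10410 in the highest. In the rich libraries it was 59865, 94101 and 145111 CPM. Every rich library thus lay above every poor one, with a log2 fold of 3.43 (SE 0.33, edgeR adjusted p = 4.5e-07). The middle libraries, which took no part in that test, stood in between at 22224 to 92451 CPM (median 32005). Within IVF libraries the log2 fold was 3.14 (SE 0.39, edgeR adjusted p = 0.000132), and within nuclear transfer 3.48 (SE 0.81, edgeR adjusted p = 0.00126). With sex added to the fit it was 3.23 (edgeR adjusted p = 7.6e-07).

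The miR-302 and miR-371 entries, which belong to clusters expressed in pluripotent and early embryonic cells, were higher in the rich libraries for every member tested. Of the 6 entries on this list 5 could be tested, and all 5 were called higher, beside 24.2% of all entries tested. Their median log2 fold was 4.63 beside 0.13 over all 215 entries. Entries rare in the poor libraries could pass the low count filter through the rich class alone. The direction of this list is therefore not independent of the filter, and its count of calls is given as a description. MiR-367 did not pass the low count filter. MiR-302b was present at 26.5, 87.1 and 408 CPM (lowest, median and highest) in the poor libraries and at 1341, 3946 and 8313 in the rich ones, a log2 fold of 4.63 (SE 0.59, edgeR adjusted p = 1.18e-05). MiR-302d went from 0, 29.7 and 343 CPM in the poor libraries to 708, 2165 and 3744 in the rich ones. The classes did not overlap in either. MiR-302a, with 0, 59.9 and 319 CPM in the poor and 1043, 3120 and 7107 in the rich libraries, behaved in the same manner. MiR-302c was seen in 3 of 9 poor libraries (12 counts in all) and in 9 of 9 rich ones (167 counts). It passed the low count filter through the rich class. MiR-371 had a log2 fold of 3.69 (SE 1.00, edgeR adjusted p = 0.00616), with a poor median of 0 and a rich median of 505 CPM.

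Summed, the 6 entries took 0.00265% to 0.105% of the remaining counts in the poor libraries (median 0.0218%), 0.0275% to 0.961% in the middle ones (median 0.201%) and 0.328% to 2.00% in the rich ones (median 0.979%). The highest values, 2.00% and 1.98%, were in IVF female replicates 3 and 4. Within IVF libraries 4 of the 5 were called and within nuclear transfer libraries 4 of the 4 tested. Over all entries 25 of 178 were higher within IVF and 39 of 185 within nuclear transfer. As bulk measurements, these values cannot tell apart vesicles from more cells of a type and more of a miRNA per vesicle.

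**Figure D3:**
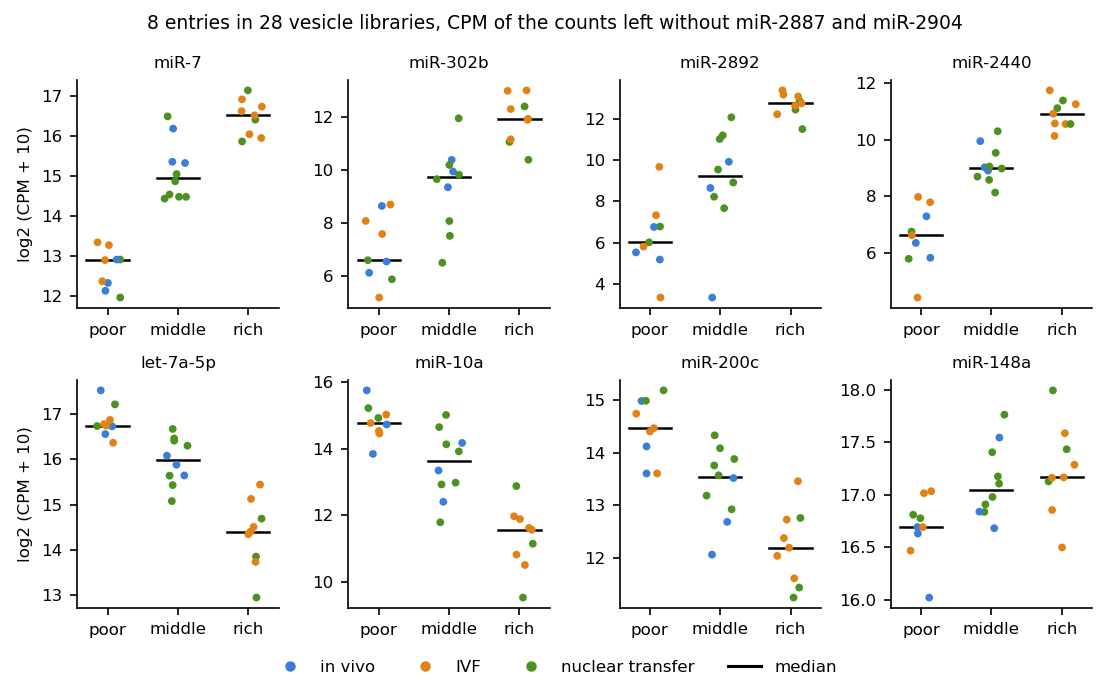
Levels of 8 entries in the 28 EV libraries by class (vertical axes, log2 of CPM + 10 on the remaining counts; each point is a library, coloured by conceptus type, and bars mark medians). In miR-7, miR-302b, miR-2892, miR-2440, let-7a-5p, miR-10a and miR-200c the rich and poor libraries do not overlap and the middle libraries lie between them at the median; miR-148a, the most abundant entry, overlaps.

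A list of entries taken to overlap other kinds of small RNA (named the overlap list) was also mostly higher. It was drawn up by entry number, and shared sequence was not checked here. Of its 15 tested members 10 were higher and 2 lower, beside 24.2% and 20.5% of all entries tested. The median log2 fold of the list was 2.33. Entries rare in the poor libraries could pass the low count filter through the rich class alone, as miR-2404 and miR-1949 did. The direction of this list is therefore not independent of the filter. The list was drawn up with miR-2887 and miR-2904 set apart, and it holds the entries numbered next to them. MiR-2892 rose from 0, 54.4 and 812 CPM in the poor libraries to 2923, 6962 and 10815 in the rich ones (log2 fold 4.98, SE 0.71, edgeR adjusted p = 1.83e-05). MiR-2889 went from a median of 229 CPM and a highest value of 1244 to 2488, 5820 and 10697 (log2 fold 3.47, SE 0.58, edgeR adjusted p = 7.6e-05). The rich libraries lay above all poor ones in both.

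MiR-1248, counted from a small nucleolar RNA host in other mammals, stood at 0, 52.0 and 583 CPM in the poor and 947, 1687 and 3093 in the rich libraries. MiR-2404 had 30 counts in 5 of 9 poor libraries and 319 in 9 of 9 rich ones. MiR-1949, which passed the low count filter through the rich class, had 2 counts in 2 of 9 poor libraries against 109 in the 9 rich ones, where it stood at 94.7, 203 and 422 CPM. As a share of the remaining counts the list took 0.514% to 2.40% in the poor libraries, 1.26% to 5.21% in the middle and 2.84% to 7.93% in the rich. With the share of miR-2887 and miR-2904 kept in the totals, 5 of 16 tested members were higher and 3 lower (median log2 fold 1.27). Over all 226 entries of that fit 25 were higher and 74 lower. Among female libraries alone 5 of 17 were higher and none lower, beside 17 of all 234 entries higher and 22 lower. With the overlap list left out of the table altogether, 82 of 200 entries were still called, 35 higher and 47 lower.

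Entries catalogued in cattle or ruminants, most of them rare and of unknown function, behaved alike. Of 482 such entries 214 had a count and 20 could be tested. By edgeR 11 of the 20 were higher and none lower, beside 24.2% and 20.5% of all entries tested. The median log2 fold was 2.31. Rare entries could pass the low count filter through the rich class alone, as miR-2463 did (27 poor and 479 rich counts). The direction of this list is therefore not independent of the filter. MiR-2440 was present at 11.4, 88.6 and 242 CPM in the poor and at a lowest of 1117 and a median of 1931 in the rich libraries (log2 fold 3.89, SE 0.55, edgeR adjusted p = 1.6e-05). MiR-2332 went from 0, 34.3 and 144 CPM to 394, 1317 and 1915, and miR-2463 from 0, 0 and 118 to 549, 1136 and 1539. MiR-12004 followed at lower level, at 0, 19.6 and 124 CPM in the poor and 126, 288 and 744 in the rich libraries. In all 4 of these entries the lowest rich library exceeded the highest poor one. With the share kept in the totals, 7 of 21 tested members of the list were higher and 3 lower (median log2 fold 1.28). Over all 226 entries of that fit 25 were higher and 74 lower. Among female libraries alone 3 of 22 were higher and none lower, beside 17 of all 234 entries higher and 22 lower. Outside both lists, miR-4449 had a log2 fold of 3.98 (SE 0.90, edgeR adjusted p = 0.00195) on 96 counts, and its classes overlapped.

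The miR-17, miR-25 and miR-92 group holds growth-related miRNAs that promote proliferation in many tissues. Of its 8 tested members 4 were higher and 1 was lower, beside 24.2% and 20.5% of all entries tested. The median log2 fold of the group was 1.14. MiR-17-5p rose by 2.51 in log2 units (SE 0.63, edgeR adjusted p = 0.00354), with a rich median of 1139 CPM. MiR-19b had log2 fold 3.15 and miR-93 1.58. MiR-92b went the other way: 380, 1116 and 2490 CPM in the poor libraries against 49.6, 97.5 and 208 in the rich, a fall of 3.46 in log2 units (SE 0.38, edgeR adjusted p = 1.99e-06) without overlap. When all counts including miR-2887 and miR-2904 were used for scaling, 4 of 8 members were positive, 0 were called higher and the median was 0.23, so the direction of this group depends on the scaling. Within nuclear transfer none of 7 was called higher, and without the 2 deepest libraries 2 of 8 were. Over all entries these fits called 39 of 185 and 40 of 224 higher.

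In the miR-148 and miR-152 family 3 of 5 tested names were higher, none was lower and the median log2 fold was 1.21. MiR-148b had a log2 fold of 1.35 (edgeR adjusted p = 0.0218), and miR-152, which shares its counts with miR-148c, 1.21 (edgeR adjusted p = 0.0483). None of the 5 was called without the 2 deepest libraries, within IVF, within nuclear transfer or with the share kept in the totals, and 1 was with sex in the fit. MiR-152 lost the threshold in 16 of the 18 fits that left out 1 library. The DLK1-DIO3 region, an imprinted locus that is active in placenta and fetal tissues, had 13 tested members; 2 were higher, miR-494 with 10 against 52 counts and miR-154c with 36 against 231. That is a smaller fraction than the 24.2% of all entries called higher. Its median log2 fold was 1.01, but 0.06 when the share was kept in the totals and 0.14 within IVF libraries. Within nuclear transfer the median was 2.82, and 5 of 10 tested members were called higher, beside 39 of all 185 entries. MiR-154c was among the 5 with a log2 fold of 5.52 (edgeR adjusted p = 0.00129). In the middle libraries the median was 2.86 with no call. Both calls of the whole comparison were lost without the 2 deepest libraries.

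In the opposite direction, the let-7 and miR-98 family, which accumulates as cells differentiate, was lower in the rich libraries. Of 9 tested members 7 were lower and none higher, beside 20.5% lower over all entries tested. The median log2 fold was -1.68. Let-7a-5p took 84338, 109429 and 187676 CPM in the poor libraries, 34575 to 104097 in the middle (median 64729) and 7915, 21677 and 44495 in the rich. The rich libraries lay below all poor ones, and let-7a-5p fell by 2.58 as a log2 fold (SE 0.38, edgeR adjusted p = 2.42e-05). Let-7b, which shares its counts with miR-3596, stood at 23887, 41065 and 50397 CPM in the poor and at 1813, 4229 and 10101 in the rich libraries, a fall of 3.18 (SE 0.44, edgeR adjusted p = 1.36e-05).

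Let-7c fell by 2.85 (SE 0.37, edgeR adjusted p = 1.18e-05), let-7d by 2.01 and let-7f by 1.30 on the log2 scale. Let-7f overlapped between the classes, with 8 of 9 rich libraries below the lowest poor one. The decline was therefore unequal within the family, from 1.30 to 3.18 in these named members. Summed, the family held 19.2% to 29.1% of the remaining counts in the poor libraries (median 21.2%), 9.32% to 18.2% in the middle (median 14.2%) and 2.45% to 11.2% in the rich (median 6.45%). No rich library reached the lowest poor one, and the 2 lowest sums, 2.45% and 3.46%, were in nuclear transfer male replicates 1 and 3.

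**Figure D4:**
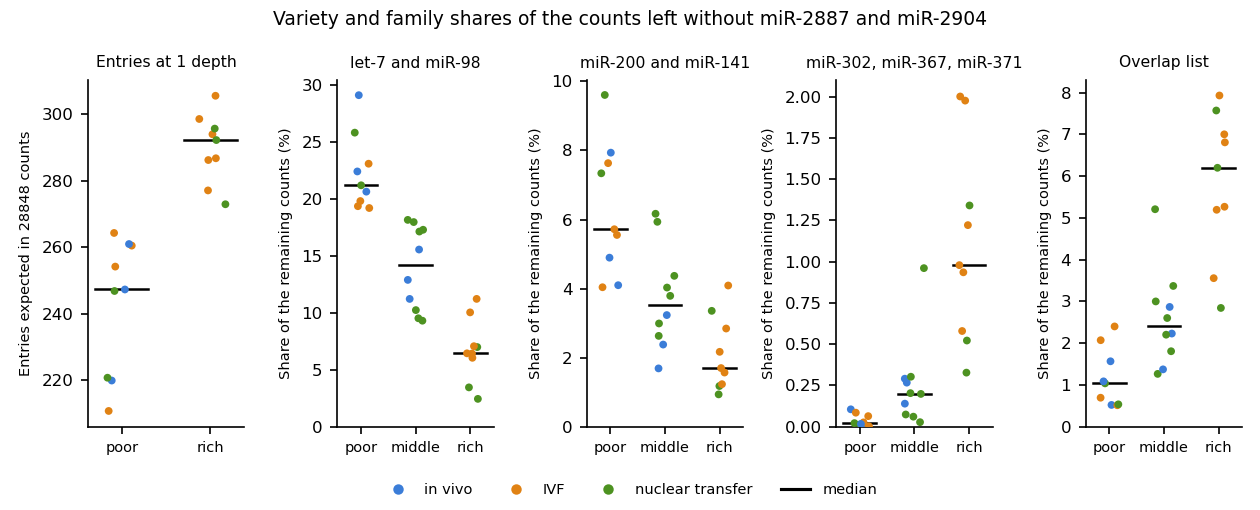
Entries expected in 28848 counts (left panel) and the summed share of the remaining counts (percent) of 4 lists by class, each point a library coloured by conceptus type, with bars for medians. Let-7 and miR-98 fall from a median of 21.2% in the poor to 6.45% in the rich libraries, and the sum of miR-302, miR-367 and miR-371 rises from 0.0218% to 0.979%.

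MiR-10a is encoded among the HOX genes that pattern the body axis. Its levels of 14633, 27839 and 54916 CPM in the poor libraries compare with 729, 3016 and 7494 in the rich, a fall of 3.49 in log2 units (SE 0.46, edgeR adjusted p = 1.22e-05) without overlap. Its group, which joins miR-10, miR-99, miR-100, miR-125 and miR-196, had 4 of 7 tested members lower and none higher. Over all entries tested 20.5% were lower. The median log2 fold of the group was -1.43. MiR-125a fell by 2.55 (SE 0.42), miR-99b by 2.13 (SE 0.39) and miR-99a-5p by 1.43 (SE 0.53) on the log2 scale. In miR-125a and miR-99b each rich library was below each poor one, while in miR-99a-5p only 5 of 9 rich libraries lay below the lowest poor one.

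Epithelial markers were lower too. The miR-200 family with miR-141 keeps the epithelial state by silencing ZEB transcription factors, and trophectoderm, the outer layer of the conceptus, is an epithelium; miR-200c was found in every EV library. Of 5 tested members 4 were lower and none higher, beside 20.5% lower over all entries tested. The median log2 fold was -1.72. MiR-200c stood at 12449, 22621 and 37227 CPM in the poor, 4268 to 20593 in the middle (median 11935) and 2421, 4680 and 11242 in the rich libraries; it fell by 2.50 (SE 0.44, edgeR adjusted p = 0.000124) without overlap. MiR-200b fell by 1.72 (edgeR adjusted p = 0.00397), miR-200a by 1.37 and miR-141 by 1.85 on the log2 scale. Together the 5 entries made up 4.04% to 9.61% of the remaining counts in the poor and 0.937% to 4.09% in the rich libraries. Only IVF male replicate 2 at 4.09% reached into the poor range.

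The largest fall of all belonged to miR-1468, which went from 419, 1782 and 2550 CPM in the poor libraries to 0, 31.6 and 273 in the rich. In counts this was 2875 against 29, with 3 rich libraries at 0 (log2 fold -4.82, SE 0.79, edgeR adjusted p = 6.52e-05). MiR-129-5p, a brain-enriched miRNA that is also found elsewhere, stood at 6816, 11946 and 15964 CPM in the poor and 546, 1874 and 4541 in the rich libraries; the entry named miR-129 carries nearly the same counts. MiR-30f fell by 3.29 (SE 0.63), miR-504 by 2.86 (SE 0.56) and miR-204, known from eye and pigment cells, by 2.79 (SE 0.77) on the log2 scale. In these last 3 entries 7 of 9 rich libraries lay below the lowest poor one.

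In miR-30, 4 of 6 tested members were lower and none higher (median log2 fold -1.03); beside miR-30f, miR-30d fell by 1.07, miR-30a-5p by 1.29 and miR-30c by 0.99. In miR-26, known to restrain growth, 2 of 3 names were lower. MiR-26a stood at 55996, 64203 and 85304 CPM in the poor and 19924, 35273 and 84444 in the rich libraries (log2 fold -1.03, SE 0.28, edgeR adjusted p = 0.0061). MiR-26c had the same fold and ran in nearly fixed proportion to miR-26a, with 9951 against 19902 counts in the rich libraries. Both names may thus stand for 1 measurement. Of the paired miR-23, miR-24 and miR-27 entries 2 of 4 were lower, miR-27b by 0.95 and miR-27a-3p by 0.86. In each of the remaining conserved groups with a call, 1 tested member was lower and none higher, where 20.5% of all entries tested were called lower: miR-222 (1 of 2 in its group, log2 fold -1.56), miR-423-5p (1 of 5, -2.36), miR-320a (1 of 2, -1.24), miR-424-3p (1 of 4, -2.43) and miR-181d (1 of 3, -1.83).

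Several of the most abundant entries did not pass the threshold. MiR-148a, which has the same counts as miR-148d, led the table with 66498, 105904 and 134161 CPM in the poor and 92589, 146986 and 261023 in the rich libraries; the log2 fold came to 0.27 (SE 0.30, edgeR adjusted p = 0.506). MiR-21-5p, a common miRNA of growing tissue, stood at 18375, 26991 and 42714 CPM against 28601, 44794 and 68412 (log2 fold 0.56, SE 0.26, edgeR adjusted p = 0.0915). The classes overlap in both, and the miR-21 and miR-22 list had no call among 3 tested members, with miR-22-3p at a log2 fold of 0.52 (SE 0.33). The miR-29 list had none among 2 (miR-29a -0.41, SE 0.39; miR-29b 0.32, SE 0.76).

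Markers of other cell types, fixed as lists, were examined beside these differences. Of 7 tested blood, serum and leukocyte entries none was called by edgeR. MiR-451, the red cell miRNA, stood at 12.2, 775 and 5261 CPM in the poor and 49.6, 2847 and 6923 in the rich libraries (log2 fold 0.52, SE 1.02, edgeR adjusted p = 0.717), and all 8 entries of the list had a count. Their sum ran from 0.0446% to 2.34% of the remaining counts in the poor and from 0.296% to 5.96% in the rich libraries. The upper end was nuclear transfer male replicate 4, in which miR-122, a liver miRNA carried in serum, reached 52397 CPM against a rich median of 3557. Within nuclear transfer miR-122 was called higher (log2 fold 2.97, SE 1.13, edgeR adjusted p = 0.0364), and within IVF it stood at -0.13. The part of blood-borne miRNAs in the class differences was not tested.

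Of 5 tested neural entries, miR-9-3p was higher (log2 fold 2.82, SE 0.68, edgeR adjusted p = 0.00282) and miR-128 lower (log2 fold -1.69, SE 0.51, edgeR adjusted p = 0.011). The other strand of the same precursor, listed as miR-9, ran from 3180 to 84735 CPM in the poor and from 12923 to 106281 in the rich libraries and was not called (log2 fold 0.79, SE 0.72, edgeR adjusted p = 0.418). The neural list named this strand miR-9-5p, which matched no entry name, so the entry miR-9 was left out of it. Without miR-9 the list summed to 0.473% to 2.91% in the poor (median 0.764%) and 0.203% to 2.47% in the rich libraries (median 0.333%). MiR-9 alone had medians of 7113 CPM in the poor and 31229 in the rich libraries. The sum thus leaves out an abundant entry that went the other way at the median. The 2 calls among the 5 tested entries of the list compare with 44.7% of all entries called. No muscle entry was called among 3 by edgeR, although miR-206 was lower without the 2 deepest libraries (log2 fold -4.73, adjusted p = 0.0293). MiR-1 stood at 10.5 to 2331 CPM in the poor and 0 to 20101 in the rich libraries, and miR-206 at 0 in 1 poor and 5 rich libraries. For both the highest rich value belonged to nuclear transfer male replicate 4.

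Because type and class were unevenly crossed, the comparison was repeated within each type. Within the 10 IVF libraries (6 rich, 4 poor) 62 of 178 entries were called, or 34.8%, 25 higher and 37 lower. Within nuclear transfer (3 rich, all male, and 2 poor, both female) 71 of 185 were called, or 38.4%, 39 higher and 32 lower. These fits share no library. They called 44 entries in common, 71.0% of the IVF calls and 62.0% of the nuclear transfer calls, and all 44 had the same direction in both. Of 61 IVF calls that could be tested in nuclear transfer, 60 had the same sign there. Of 68 nuclear transfer calls tested in IVF, 66 did. Over all 170 entries tested in both, called or not, 78.8% had the same sign.

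**Figure D5:**
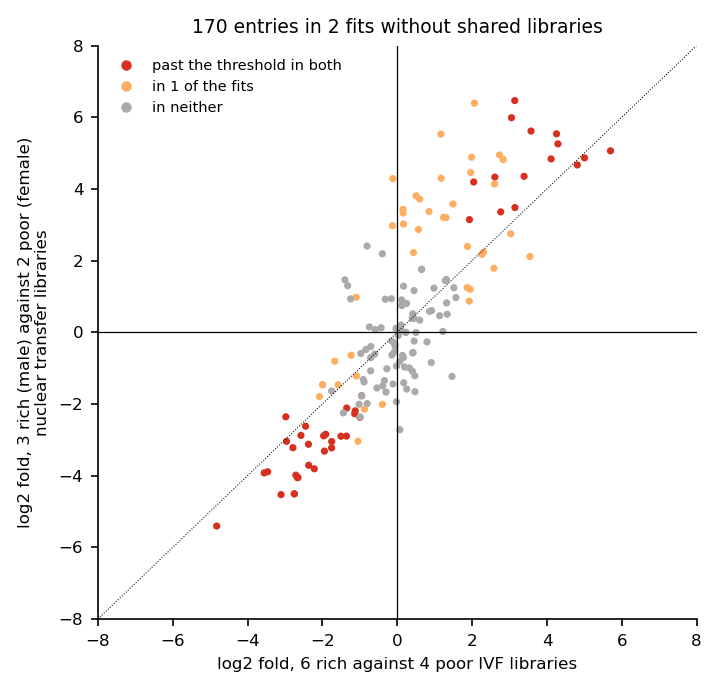
Fold between rich and poor libraries within nuclear transfer (vertical axis, log2) against that within IVF (horizontal axis, log2) for the 170 entries tested in both, each point an entry and the dotted line equality. The 44 entries past the threshold in both fits (red) all lie in the lower left or the upper right quadrant.

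Of the 24 leading rises and falls, 22 were called in both types. The 24 were chosen by their folds in the fit over the same IVF and nuclear transfer libraries. This count is therefore a description and not a separate test. MiR-302c was called within IVF and could not be tested within nuclear transfer, and miR-4449 could be tested in neither. Let-7a-5p had a log2 fold of -2.37 within IVF (edgeR adjusted p = 0.000533) and of -3.71 within nuclear transfer (edgeR adjusted p = 0.000518). For miR-10a they were -3.56 and -3.92, for miR-200c -2.22 and -3.81, and for miR-1468 -4.82 and -5.40. MiR-302b had log2 folds of 4.11 and 4.84, and miR-2892 of 4.29 and 5.26. Whether a fold depended on type was tested with an interaction term: by edgeR it was called for 0 of 222 entries (0%), with 21 at an unadjusted p under 0.05. No other tool was run for the interaction.

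Sex was examined in 4 further fits. With sex beside type in the fit, 88 entries were called, 47 higher and 41 lower. Among female libraries alone (4 rich, 7 poor) 39 of 234 were called, 17 higher and 22 lower, with miR-7 at a log2 fold of 3.30, miR-302b at 4.19 and let-7a-5p at -2.41. Male libraries alone rest, within type, on 2 rich and 1 poor IVF library, and gave 27 calls, 23 higher and 4 lower; there let-7a-5p was at -0.89 (edgeR adjusted p = 0.496) and miR-7 at 3.86 (adjusted p = 0.041). Over all 12 nuclear transfer libraries, with the log odds of the share as a graded value and sex in the fit, 4 of 218 were called. In that fit, scaled to the gap between the class means, miR-7 was at 2.46 (edgeR adjusted p = 0.0548), let-7a-5p at -2.06 (adjusted p = 0.0659) and miR-302b at 3.09 (adjusted p = 0.126). Each kept its sign, yet none of the 3 passed. All 58 named calls kept their direction and lost the threshold in that fit.

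The 10 middle libraries had no part in the choice of entries. With the log odds of the share in place of classes, 0 of 204 entries (0%) were called there by edgeR and 15 lay at an unadjusted p under 0.05. The range of the log odds among these libraries was 0.91, against 2.46 between the means of the rich and poor classes. Of 85 entries called between rich and poor and tested in the middle libraries, 68 had the same sign, or 80%, beside 75.4% of all entries tested in both. The epithelial list went against its direction there, with 4 of 5 members positive. Over all 28 libraries with the graded share, 105 of 222 entries were called, 57 higher and 48 lower.

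Depth was entered in the fit as the count left in each library, which gave 70 calls, 34 higher and 36 lower. MiR-7 was then at a log2 fold of 3.25, miR-302b at 4.33, let-7a-5p at -2.20 and miR-10a at -3.23. Without the 2 deepest libraries, nuclear transfer female replicate 3 and in vivo male replicate 3, 76 of 224 entries were called, and the same 4 entries stood at 3.27, 4.37, -2.41 and -3.51. Of the 58 named calls, 45 kept direction and threshold with depth in the fit and 13 lost the threshold. Without the 2 deepest libraries 47 kept both and 11 lost the threshold.

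The endometrium of the same cows gave a readout that the choice of libraries did not use. It was available for the cows of 8 rich and 9 poor libraries, with 5525891 to 9815246 estimated counts per endometrium library in the series. By edgeR, 0 of 15549 genes (0%) differed between the cows whose conceptuses gave rich and poor vesicle libraries, with 1084 at an unadjusted p under 0.05. Limma voom also called 0 and DESeq2 called 34, 20 higher and 14 lower. Without the 1 library from the horn opposite the conceptus, from the cow of EV library nuclear transfer male replicate 3, edgeR called 4. Without the cow of EV library IVF female replicate 5 it called 1. The genes are known by identifier alone and are not named here, so the markers of endometrial cell types were not checked.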

How the data were processed

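The classes, the lists of entries and the tests were chosen with earlier results of these data known. Per the labels' protocols, EV RNA was made into small RNA libraries cut to inserts of 18 to 40 bp, and endometrial poly(A) RNA into dUTP-marked libraries. The submitters' processing notes name Bowtie, STAR, cutadapt, featureCounts, DESeq2 and build ARS-UCD1.2. Software versions, roles, settings and annotation release: not given in the sources used here. EV values were deposited by the authors as whole counts per miRNA, and endometrium values as estimated counts per gene (10.2% of values with a fraction), neither normalized; the latter were rounded before testing.

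Samples were grouped by title, and animal numbers tied EVs to endometrium. Shares came from all counts. For the comparison miR-2887 and miR-2904 were removed, and entries were filtered with filterByExpr (minimum count 10, minimum total 15), scaled with TMM and tested with edgeR 4.0.16 in R 4.3.3 (quasi-likelihood F test, two-sided, conceptus type as covariate, Benjamini-Hochberg adjustment over all entries tested, threshold 0.05). An entry at 0 or at few counts in one class could pass the filter only through the other, in any list. Printed CPM used the remaining totals, without TMM. Graded fits used the log odds of the share, divided by the gap between class means. DESeq2 1.42.0 and limma 3.58.1 (voom with quality weights) were alternatives, beside other scalings, filters, covariates, class sizes, rankings and subsets; the fits on the middle libraries, within 1 sex, over all nuclear transfer libraries with sex and without the 2 deepest libraries were added after the data were seen.

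Entries named are the 12 largest rises and 12 largest falls among calls with a mean of at least 100 CPM, up to 4 calls of each list, up to 2 members of lists without a call, and the 10 most abundant; sums of lists and the values of single libraries are given beside them. A planned comparison of GC content was not made, since sequences of the miRNAs were not used here. The scripts were tested on simulated data.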

Additional observations from a re-analysis of the deposited data

Results flagged for a closer look

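For the 69 named entries and both single values, the highest and lowest library of each class were checked for lying far from the other 8 relative to the range of the class (Dixon's criterion at 95%). Of 142 such checks 32 were met, where chance meets about 1 in 20, and entries with few counts or of 1 family are not independent of each other.

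Among the rich libraries, nuclear transfer male replicate 4 was highest for miR-122 (52397 CPM), miR-1 (20101), miR-206 (1672) and miR-10a (7494). IVF female replicate 4, the library with the highest share of miR-2887 and miR-2904, was highest for miR-9 (106281 CPM), miR-128 (18754), miR-99a-5p (10191), let-7c (2427), miR-99b (2323) and miR-204 (832). IVF female replicate 6 was highest for miR-26a (84444 CPM), miR-26c (42222) and miR-423-5p (3398). IVF male replicate 2 was highest for miR-12004 (744 CPM) and miR-1468 (273), and IVF male replicate 1 for miR-19b (1404).

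Among the poor libraries, in vivo female replicate 3 was highest for let-7c (14658 CPM), miR-27b (13579), miR-27a-3p (7157), miR-29a (5417), miR-22-3p (3677), miR-302d (343) and miR-4449 (172). IVF female replicate 7 was highest for miR-2404 (159 CPM), miR-12004 (124) and miR-302c (70.9), and IVF female replicate 1 for miR-2892 (812) and miR-2463 (118). The highest values also stood apart for miR-451 in IVF female replicate 2 (5261 CPM), miR-30f in nuclear transfer female replicate 3 (4340), miR-1248 in IVF male replicate 3 (583) and miR-494 in nuclear transfer female replicate 4 (43.6).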

How the results depend on the processing

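The number of EV calls lay within 1.5 times the 96 under DESeq2 (116, of which 94 were among the 96), limma voom (95 shared), size factors of the DESeq2 kind (93, 90 shared), remaining totals alone (98, 88 shared), other filters, covariates, class sizes and rankings, and from 80 to 97 when each of the 18 libraries was left out. It was 71 within nuclear transfer (5 libraries) and lower within IVF (62; 10 libraries), among female (39; 11) and male libraries alone (27; 7), over the 12 nuclear transfer libraries with sex (4) and in the 10 middle libraries (0); the cause was not tested. For the endometrium DESeq2 called 34, the fit without the contralateral library 4, and fits without 1 library 0 to 4. Over 23 alternatives the 58 named calls kept direction and threshold in 1011 of the 1302 values, lost the threshold in 276 and changed sign in 15; with 1 library left out, none changed sign and 11 entries lost the threshold at least once. No paired analysis was possible because the classes come from a measured share and the replicate numbers belong to groups of type and sex. The GC alternative was not run. Low counts limit entries near 10 counts.

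Signs turned as follows, in log2 folds; the cause was not tested. With the share kept in the totals, miR-148a and miR-148d were at -0.65, miR-21-5p at -0.34, miR-9 at -0.12, miR-29b at -0.50, miR-22-3p at -0.39, miR-122 at -0.20 and miR-451 at -0.47. Among male libraries, miR-26a and miR-26c were at 0.23, let-7f at 0.060, miR-30d at 0.60, miR-30a-5p at 0.38, miR-30c at 0.58, miR-200b at 0.057, miR-200a at 0.29 and miR-9 at -1.09. In the middle libraries, miR-9 was at -2.29, miR-30a-5p at 0.76, miR-29b at -0.85, miR-27b at 1.42, miR-27a-3p at 1.85, miR-181d at 1.48, miR-1 at 1.33, miR-200b at 0.69, miR-200a at 1.67 and miR-141 at 0.66. Among female libraries, miR-29a was at 0.31, miR-122 at -1.27 and miR-451 at -0.37. Over nuclear transfer libraries with sex, miR-148a and miR-148d were at -0.26, miR-451 at -0.61, miR-1 at 5.13 and miR-206 at 1.60 (2.69 within nuclear transfer classes). Within IVF, miR-148a and miR-148d were at -0.027 and miR-122 at -0.13, and without a filter the first pair at -0.067. With 7 libraries a class, miR-29b was at -1.08 and miR-122 at -0.20; ranked by miR-2887 alone, miR-29b was at -0.71 and miR-451 at -0.12; with depth in the fit, miR-122 was at -0.19 and miR-451 at -0.27, and under voom miR-451 was at -0.46. MiR-1 was at 0.0070 (DESeq2), 0.034 (size factors), 0.22 (remaining totals), 2.35 (no covariate), 1.25 (all 28 libraries) and 1.19 (ranked by miR-2904). With 1 library left out, miR-29b ran from -0.42 to 0.57, miR-122 from -0.070 to 2.01 and miR-1 from -1.01 to 1.15.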
